A study of Mus musculus with 9 samples.

Results

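Expression of 10 genes of gut endocrine cells was followed in RNA of the mouse colon: the peptide hormone genes Pyy, Gcg, Insl5, Sst, Cck and Nts, the granin genes Chga and Chgb, the serotonin synthesis gene Tph1 and the transcription factor gene Neurod1. The set was chosen by function, and its members were found by gene symbol. All 10 were among the 54491 rows of the expression table and all 10 passed the filter for low values, which 17907 genes passed. The study took 45 C57BL/6 mice, 15 a group, at 6 weeks of age, and colon was collected at postnatal day 98. The control group has only the label control, the second group was fed a high-fat diet (HFD), and the third received the high-fat diet and the gut bacterium Papillibacter cinnamivorans by gavage. Each group has 3 libraries: replicates 1, 2 and 3 of control, 1, 2 and 4 of HFD, and 1, 3 and 4 of HFD with the bacterium. The labels name neither the control food nor a sham gavage, so effects of the bacterium and of its delivery by tube cannot be told apart. They also do not give the stretch of colon taken, or say whether each library came from a separate mouse, so p-values measure only the spread between these libraries.

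Enteroendocrine cells are scattered single cells of the gut lining that sense nutrients and microbial products and release hormones to nearby nerves and cells or into the blood. L cells, frequent in the lower gut, make peptide YY (Pyy), glucagon-like peptides from Gcg and, in the mouse colon, the insulin-like peptide of Insl5. D cells make somatostatin (Sst), which restrains the release of other hormones, and enterochromaffin cells make most of the serotonin of the body with the enzyme encoded by Tph1. Neurotensin (Nts) and cholecystokinin (Cck) are made mainly by endocrine cells of the small intestine. Chromogranins (Chga, Chgb) fill the dense-core vesicles in which these hormones are stored, and Neurod1 encodes a factor of cells that are becoming endocrine.

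The hormone genes that passed the test for HFD against control, Sst, Nts and Pyy, did not all change in the same direction. The stretches before their start sites are shown, and that of Chgb, which did not pass in any comparison but shares a motif with Sst. These are the 250 bases before the RefSeq start site on build GRCm38.p6, 5′ to 3′ on the strand of the gene, and capitals mark matches to the motifs searched. Sst lies on the minus strand (chr16:23890845-23891094), as do Nts (chr10:102490419-102490668) and Pyy (chr11:102107833-102108082, the first of its 2 windows). Chgb lies on the plus strand (chr2:132781392-132781641).
Sst: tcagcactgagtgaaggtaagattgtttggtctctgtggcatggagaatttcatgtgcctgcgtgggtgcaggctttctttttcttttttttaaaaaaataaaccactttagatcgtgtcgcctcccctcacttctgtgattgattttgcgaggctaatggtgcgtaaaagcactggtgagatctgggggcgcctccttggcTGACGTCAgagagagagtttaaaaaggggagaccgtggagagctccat
Chgb: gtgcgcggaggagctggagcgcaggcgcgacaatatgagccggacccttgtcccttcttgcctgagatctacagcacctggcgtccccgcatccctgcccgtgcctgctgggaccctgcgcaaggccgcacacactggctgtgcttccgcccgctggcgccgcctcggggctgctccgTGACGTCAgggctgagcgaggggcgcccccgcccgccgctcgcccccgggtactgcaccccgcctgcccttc
Nts: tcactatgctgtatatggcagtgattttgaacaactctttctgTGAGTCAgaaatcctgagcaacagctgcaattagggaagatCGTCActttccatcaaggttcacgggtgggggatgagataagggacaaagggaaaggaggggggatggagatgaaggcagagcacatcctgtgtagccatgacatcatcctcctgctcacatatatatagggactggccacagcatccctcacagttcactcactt
Pyy: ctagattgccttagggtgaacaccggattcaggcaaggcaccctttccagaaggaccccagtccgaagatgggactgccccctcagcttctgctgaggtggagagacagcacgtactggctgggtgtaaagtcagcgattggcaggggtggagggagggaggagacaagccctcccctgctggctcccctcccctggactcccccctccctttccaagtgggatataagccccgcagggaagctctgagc
In Sst and Chgb the capitals are the cyclic AMP response element TGACGTCA, which begins 48 bases before the Sst start and 72 before that of Chgb. In Nts they are a match to the AP-1 motif TGANTCA, which begins at 207 bases before the start, and the shorter core TGACG on the other strand, at 166. The Pyy stretch holds no match. The windows searched ran from 250 bases before to 50 after each start, 13 windows for the 10 members, on both strands. TGACGTCA was found in 2 of the 13 windows, of 2 members, and in 1.79% of all 32851 RefSeq promoter windows. The core TGACG, which is part of TGACGTCA, was found in 7 of the 13 windows, of 6 members, and in 20.8% of all windows. TGANTCA was in 1 of the 13, of 1 member, and in 7.81% of all. The TATA box letters TATAAA were in 4 of the 13, of 3 members (Gcg, Insl5 and Chga), and in 13.6% of all. The Chga match began at base 6 counted from the start, not before it. A motif of caudal and posterior HOX factors, TTTATTG, was in 0 of the 13 windows and in 4.60% of all. A match describes letters only, and binding was not measured.

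Levels are in FPKM, fragments per kilobase of transcript scaled to the size of the library, as deposited by the authors, and because they are per length they can be compared between genes. In 9 libraries, 30555 genes, 94.9% of those above 0, had values that were whole numbers of fragments within a tolerance of 0.02 fragments or 1e-05 of the value, and the libraries held 14403751 to 16834606 such fragments. Differences were tested with limma on log2(FPKM + 1), a scale that makes changes of weakly expressed genes look smaller, and genes with an adjusted p below 0.05 (Benjamini-Hochberg, over all genes tested) are called. The deposited scaling lowers HFD values against totals of the recovered fragments. The divisor of a library was 1.11 to 1.12 times that total in HFD, 0.919 to 1.05 times in control and 0.970 to 1.07 times in HFD with the bacterium. Fragments of genes that were not recovered are missing from these totals. Of all genes called for HFD against control, 53.8% were higher, against 78.2% after scaling each library to an equal sum (TPM), 76.9% after scaling without mitochondrial and immunoglobulin genes, 86.1% with epithelial markers set equal and 75.7% with limma-voom on the recovered fragments. These settings moved the median difference of all genes from -0.00 to 0.22, 0.17, 0.29 and 0.22 on the log2 scale. For HFD with the bacterium against HFD, 37.4% of calls were higher, against 25.0% with TPM scaling and 28.9% with limma-voom, where the median moved to -0.18 and -0.14. In the comparison of HFD with the bacterium and control 23.7% were higher, against 76.7% with scaling without mitochondrial and immunoglobulin genes and 93.0% with epithelial markers set equal, where the medians were 0.14 and 0.29, and 36.8% with limma-voom. The epithelial markers Krt8, Epcam and Lgals4 were high in all 9 libraries, from 419 FPKM for Epcam to 3014 for Krt8. The sum of 8 such markers was not even: it was 4660, 8006 and 8994 FPKM in control replicates 1, 2 and 3. It was 5023 to 5770 in HFD and 4604 to 5588 in HFD with the bacterium. Summed smooth muscle markers were 6643 FPKM in control replicate 1 and 1261 to 3081 in the other 8 libraries, so that library stands apart, and results that rest on it are given with and without it. Summed B and plasma cell markers were 109 to 189 FPKM in control, 883 to 1122 in HFD and 199 to 413 in HFD with the bacterium. Of 6 such markers, 6 were called higher in HFD than in control, and 5 lower in HFD with the bacterium than in HFD. This is 100% and 83.3% of them, beside 19.7% and 12.1% of all genes called. The part of these cells in the hormone results was not tested.

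By the mean over 9 libraries the order of levels was Pyy (94.99 FPKM), Sst (86.0), Insl5 (49.8), Gcg (25.1), Nts (17.3), Chga (13.7), Chgb (12.7), Tph1 (1.89), Neurod1 (1.495) and Cck (0.870). The 7 genes from Pyy to Chgb cannot be put in a firm order over all libraries, since the ranges of neighbours overlap. In HFD the order was firm at the top: the lowest Pyy value, 138 FPKM, lay above the highest Insl5 value, 120, and the lowest Insl5 value, 104, lay above the highest Gcg value, 26.3. In HFD with the bacterium the lowest Sst value, 81.4 FPKM, lay above the highest Pyy value, 57.6. In control the ranges of Sst and Pyy overlapped. Of the 9 genes above 0 in every library, Chga varied least, by 1.63-fold from lowest to highest, and Insl5 most, by 110-fold.

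**Figure D1:**
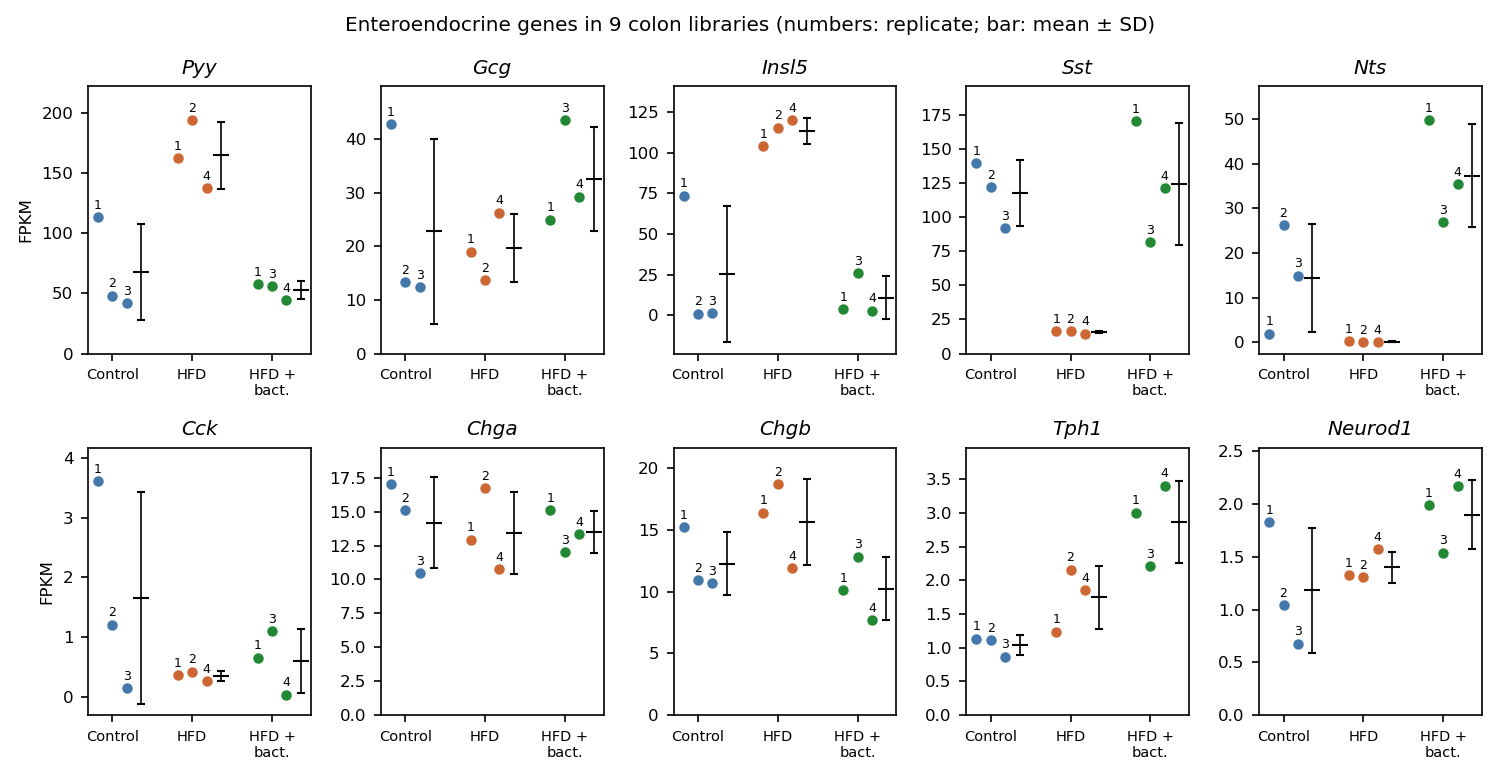
Level of each of the 10 genes in FPKM (vertical axis, linear, its range set for each gene) in the 3 groups (horizontal axis); each point is 1 library with its replicate number, and the bar beside each group is the mean with its SD over 3 libraries. Sst and Nts are low in all 3 HFD libraries, Pyy and Insl5 are high in them, and control replicate 1 lies above the other control libraries for Pyy, Insl5, Gcg and Cck.

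In all, 3 members passed the test for HFD against control: Pyy rose, and Sst and Nts fell. This is 3 of 10, where 19.7% of all 17907 genes tested were called in either direction. The same 3 genes passed for HFD with the bacterium against HFD, each in the opposite direction, where 12.1% of all genes were called. These 2 comparisons share the HFD libraries, so a level peculiar to those libraries enters both with opposite sign. The only member called for HFD with the bacterium against control was Tph1, where 1.11% of all genes were called. Bulk RNA cannot tell fewer cells of a type from less RNA in each cell. Groups did not overlap for 5 of the 10 members between HFD and control, for 5 between HFD with the bacterium and HFD and for 2 between HFD with the bacterium and control, where 42.1%, 39.0% and 21.7% of all tested genes did not overlap.

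**Figure D2:**
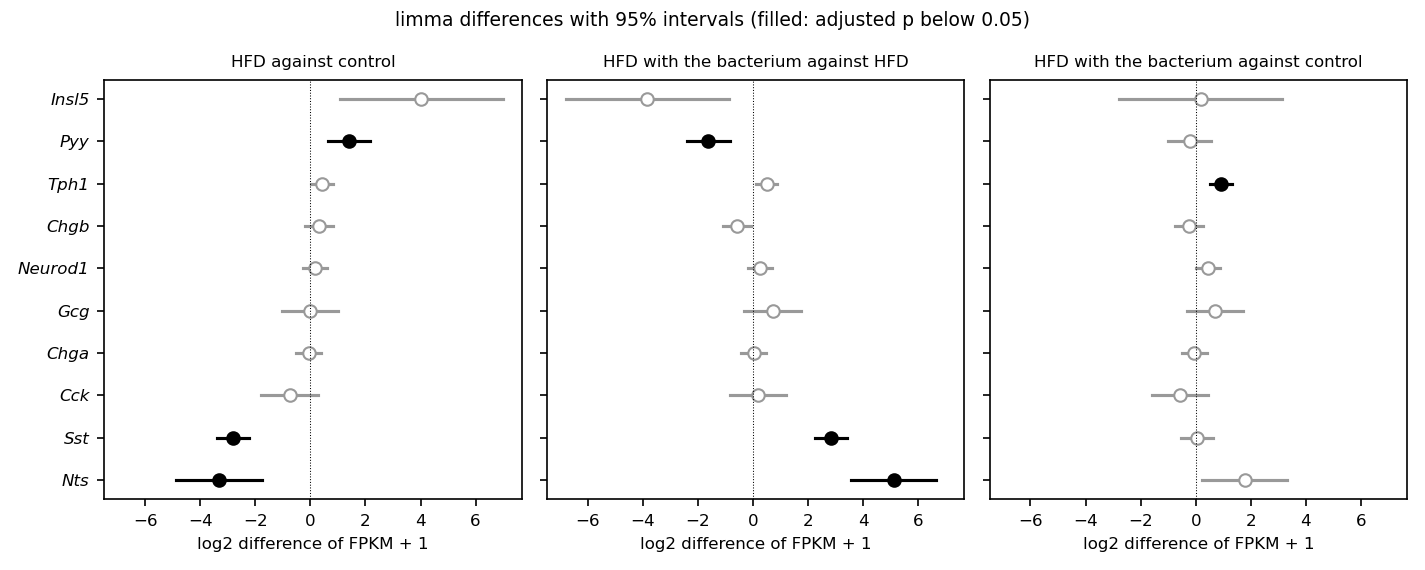
Difference of each gene on the log2(FPKM + 1) scale (horizontal axis) in the 3 comparisons, 1 panel each; points are limma estimates, lines their 95% intervals, and filled black points have an adjusted p below 0.05. Pyy, Sst and Nts are filled in the first and second panels on opposite sides of 0, Tph1 is the only filled point in the third, and the intervals of Insl5 are the widest.

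Pyy, the L cell hormone that slows gut transit and curbs appetite, was highest in HFD. Its level was 113, 48.0 and 41.9 FPKM in control replicates 1, 2 and 3, 162, 194 and 138 in HFD replicates 1, 2 and 4, and 57.6, 55.9 and 44.1 in replicates 1, 3 and 4 of HFD with the bacterium. All HFD values lay above all others, and the 3 control values spanned those of HFD with the bacterium. The mean in HFD (165 ± 28.2, SD, n = 3) was 2.43 times that in control (67.7 ± 39.6), a log2 difference of 1.40 (SE 0.34, adjusted p = 0.0214). It was 3.13 times that in HFD with the bacterium (52.5 ± 7.36), which fell by 1.63 on the log2 scale (SE 0.34, adjusted p = 0.0155). The call against control was lost without control replicate 2 (adjusted p = 0.0742), control replicate 3 (0.0592), HFD replicate 1 (0.0657) or HFD replicate 2 (0.0761), and kept with 1.84 without control replicate 1 (adjusted p = 0.000344). The call for HFD with the bacterium against HFD was lost without HFD replicate 1 (adjusted p = 0.0572), HFD replicate 2 (0.0671) or replicate 4 of HFD with the bacterium (0.0616). HFD with the bacterium and control differed by -0.23 (95% interval -0.996 to 0.546, adjusted p = 0.774).

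Insl5, the second L cell hormone, was at 104, 115 and 120 FPKM in HFD replicates 1, 2 and 4. In control it was 73.6 in replicate 1 but 1.09 and 1.19 in replicates 2 and 3. In HFD with the bacterium it was 3.66, 26.0 and 2.99 in replicates 1, 3 and 4. The HFD values lay above all others, and the highest library was 67.3 times the lowest in control and 8.71 times in HFD with the bacterium. With that spread neither difference was called: 4.03 for HFD against control (SE 1.30, adjusted p = 0.0597) and -3.84 for HFD with the bacterium against HFD (SE 1.30, adjusted p = 0.0942). Without control replicate 1 the first was 5.74 (adjusted p = 0.00112) and the second -3.84 (adjusted p = 0.00512). The first was also called with scaling without mitochondrial and immunoglobulin genes (adjusted p = 0.0471), with epithelial markers set equal (0.0416) and with limma-voom (0.0134). The second was also called with only the 2 groups compared (0.0109) and with limma-voom (0.0239).

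Gcg, which encodes the glucagon-like peptides of the same L cells, did not pass the test in any comparison. Its level was 42.8, 13.3 and 12.4 FPKM in control replicates 1, 2 and 3, 19.0, 13.7 and 26.3 in HFD replicates 1, 2 and 4, and 25.0, 43.5 and 29.3 in replicates 1, 3 and 4 of HFD with the bacterium. The ranges of all 3 groups overlapped. The difference between HFD and control was -0.02 (95% interval -1.043 to 0.998, adjusted p = 0.979), an interval that spans about 1 log2 unit either way. Without control replicate 1 the difference between HFD with the bacterium and control was 1.24 (adjusted p = 0.0472), against 0.69 with it (adjusted p = 0.448).

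Pyy and Gcg, which L cells make together, are set side by side here. The ratio of their FPKM was 2.65, 3.60 and 3.37 in control replicates 1, 2 and 3, 8.54, 14.2 and 5.23 in HFD replicates 1, 2 and 4, and 2.30, 1.28 and 1.504 in replicates 1, 3 and 4 of HFD with the bacterium. The 3 groups did not overlap, with HFD highest and HFD with the bacterium lowest. The ratio was not tested.

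Sst, the D cell hormone, which nerve cells of the gut wall also make, had the smallest p of the 10 genes in both comparisons with HFD. It was 139, 122 and 92.1 FPKM in control replicates 1, 2 and 3, 16.5, 16.3 and 14.7 in HFD replicates 1, 2 and 4, and 170, 81.4 and 121 in replicates 1, 3 and 4 of HFD with the bacterium. The HFD values lay far below all others and close together, and the other groups overlapped. The control mean (118 ± 24.0) was 7.45 times the HFD mean (15.8 ± 1.014), and Sst fell by 2.80 on the log2 scale (SE 0.26, adjusted p = 0.000251). In HFD with the bacterium (124 ± 44.6) it was 7.86 times the HFD mean, a rise of 2.84 (SE 0.26, adjusted p = 0.000288). Both calls held in all 20 alternative settings. HFD with the bacterium and control differed by 0.03 (95% interval -0.55 to 0.62).

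The summed level of enteric neuron markers was 195, 103 and 72.9 FPKM in control replicates 1, 2 and 3. It was 53.4 to 57.0 in HFD and 88.2 to 146 in HFD with the bacterium. Of 10 markers 9 were tested, 4 fell in HFD against control, and 2 rose in HFD with the bacterium against HFD. This is 44.4% and 22.2% of those tested, beside 19.7% and 12.1% of all genes. The counts were 2 and 1 with TPM scaling and 0 and 0 with epithelial markers set equal. None of the 10 was at 0 in all libraries, and the lowest control sum, in replicate 3, was 1.28 times the highest HFD sum. Glial markers summed to 7.58 to 21.4 FPKM in control, 6.61 to 7.54 in HFD and 12.1 to 19.0 in HFD with the bacterium. The part of neurons in the Sst result was not tested.

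Nts was almost undetected in HFD. It was 1.93, 26.3 and 14.9 FPKM in control replicates 1, 2 and 3, 0.214, 0 and 0.0458 in HFD replicates 1, 2 and 4, and 49.7, 26.9 and 35.4 in replicates 1, 3 and 4 of HFD with the bacterium. In fragments these were 41, 497 and 282 in control, 5, 0 and 1 in HFD, and 867, 560 and 776 with the bacterium, where 0 fragments allow up to 3. HFD lay below both other groups, and control lay below HFD with the bacterium with only a narrow gap, between control replicate 2 and replicate 3 of HFD with the bacterium. Nts fell by 3.32 in HFD against control (SE 0.68, adjusted p = 0.0110) and rose by 5.10 in HFD with the bacterium against HFD (SE 0.68, adjusted p = 0.00185). With a pseudocount of 0.1 in place of 1 the values were -5.81 and 7.77, so neither is a measure of the fold change. The difference between HFD with the bacterium and control was 1.78 (95% interval 0.23 to 3.33, adjusted p = 0.199), and 0.84 without control replicate 1 (adjusted p = 0.116). It ran from 0.84 to 2.45 when each library was left out in turn.

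Cck stayed near the lower limit of the measurement. Its values were 3.61, 1.21 and 0.152 FPKM in control replicates 1, 2 and 3, 0.368, 0.427 and 0.263 in HFD replicates 1, 2 and 4, and 0.658, 1.104 and 0.0436 in replicates 1, 3 and 4 of HFD with the bacterium. This is 80, 24 and 3 fragments, 9, 10 and 6 fragments, and 12, 24 and 1 fragments. The groups overlapped, and no difference was called. HFD against control gave -0.75 (95% interval -1.78 to 0.27, adjusted p = 0.273), and -0.24 without control replicate 1 (adjusted p = 0.654), which held the most fragments. HFD with the bacterium against control gave -0.56 (adjusted p = 0.546), and -0.054 without that library (adjusted p = 0.939).

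The make-up of the hormone transcripts therefore differed between libraries. Sst made up 50.5% ± 11.5 (SD, n = 3) of the summed FPKM of the 6 hormone genes in control, 5.05% ± 0.35 in HFD and 47.4% ± 11.2 in HFD with the bacterium. Pyy made up 26.2% ± 3.81, 52.3% ± 5.63 and 20.5% ± 2.87. Insl5 made up 34.4%, 34.0% and 40.1% in HFD replicates 1, 2 and 4, and 19.6%, 0.517% and 0.729% in control replicates 1, 2 and 3. The sum itself was 163 to 375 FPKM in control, 299 to 340 in HFD and 233 to 307 in HFD with the bacterium, so its ranges overlapped. A share can change because another hormone does, and shares were not tested.

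**Figure D3:**
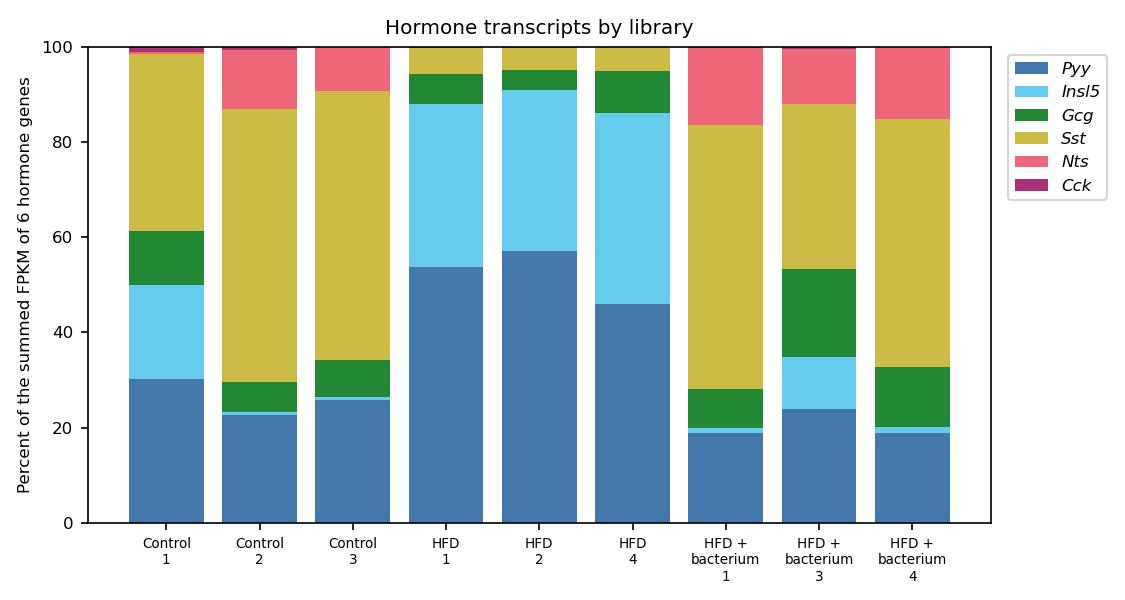
Share of each hormone gene in the summed FPKM of 6 hormone genes (vertical axis, percent) in each of the 9 libraries (horizontal axis, group and replicate). Pyy and Insl5 together fill 86.2% to 91.0% of the HFD bars, Sst is the largest part of the control and HFD-with-bacterium bars, and control replicate 1 and replicate 3 of HFD with the bacterium hold more Insl5 than the others of their groups.

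Neither granin gene was called in any comparison. Chga was 17.0, 15.1 and 10.5 FPKM in control replicates 1, 2 and 3, 12.9, 16.7 and 10.7 in HFD replicates 1, 2 and 4, and 15.1, 12.02 and 13.4 in replicates 1, 3 and 4 of HFD with the bacterium. All 3 ranges overlapped, and the 95% interval of the difference was -0.54 to 0.40 for HFD against control, -0.45 to 0.49 for HFD with the bacterium against HFD and -0.52 to 0.42 for HFD with the bacterium against control. The sign of each of these small differences turned with the scaling. Chgb was 15.2, 10.9 and 10.7 FPKM in control, 16.4, 18.7 and 11.9 in HFD, and 10.1, 12.8 and 7.70 in HFD with the bacterium, and those ranges overlapped too. Its largest difference was -0.57 in HFD with the bacterium against HFD (SE 0.22, adjusted p = 0.141).

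Set against Chga, Sst stood at 8.36 ± 0.40 in control, 1.21 ± 0.20 in HFD and 9.05 ± 2.27 in HFD with the bacterium, in FPKM of Sst per FPKM of Chga. Pyy stood at 4.61 ± 1.82, 12.3 ± 0.65 and 3.92 ± 0.68. Within a library such ratios do not depend on its scaling.

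Tph1, the rate-limiting enzyme of serotonin synthesis outside the brain, was highest in HFD with the bacterium. It was 1.13, 1.11 and 0.867 FPKM in control replicates 1, 2 and 3, 1.24, 2.16 and 1.85 in HFD replicates 1, 2 and 4, and 3.00, 2.21 and 3.402 in replicates 1, 3 and 4 of HFD with the bacterium, from 81 to 369 fragments a library. On the deposited scale the 3 groups did not overlap, with control lowest and HFD between. The gap between HFD replicate 2 and replicate 3 of HFD with the bacterium was narrow. In fragments their order was reversed (239 and 227). The mean in HFD with the bacterium (2.87 ± 0.61) was 2.77 times that in control (1.04 ± 0.15), a log2 difference of 0.92 (SE 0.17, 95% interval 0.53 to 1.30, adjusted p = 0.0474). The estimate stayed between 0.82 and 1.55 in 20 alternative settings but was called in 7 of them, with an adjusted p from 0.0336 to 0.258. Leaving out control replicate 2 (adjusted p = 0.128), control replicate 3 (0.110), HFD replicate 1 (0.0820), HFD replicate 2 (0.0703), HFD replicate 4 (0.0717), replicate 1 (0.114) or replicate 4 (0.156) of HFD with the bacterium ended the call. HFD against control gave 0.42 (SE 0.17, adjusted p = 0.118), called with TPM scaling (0.78, adjusted p = 0.0455) and with limma-voom (0.93, adjusted p = 0.0478). HFD with the bacterium against HFD gave 0.50 (SE 0.17, adjusted p = 0.0996).

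Mast cells also use Tph1. Their 11 markers summed to 12.3 to 19.3 FPKM in control, 23.3 to 32.8 in HFD and 14.7 to 19.3 in HFD with the bacterium. The mast cell receptor gene Kit, which other cells of the gut wall also express, was 17.4, 8.07 and 7.20 FPKM in control replicates 1, 2 and 3, 6.58, 5.59 and 6.66 in HFD and 12.7, 13.2 and 11.8 in HFD with the bacterium. The mast cell receptor gene Fcer1a was at 0 in all 3 control libraries, and the protease gene Cma1 was at 9.39 to 14.6 FPKM in HFD and at or below 0.424 in the other 6 libraries. The part of mast cells in the Tph1 result was not tested.

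The level of Neurod1 was 1.83, 1.04 and 0.678 FPKM in control replicates 1, 2 and 3, 1.33, 1.31 and 1.57 in HFD replicates 1, 2 and 4, and 1.99, 1.54 and 2.17 in replicates 1, 3 and 4 of HFD with the bacterium. All 3 ranges overlapped. The largest difference was 0.44 in HFD with the bacterium against control (SE 0.19, adjusted p = 0.249), and 0.64 without control replicate 1 (adjusted p = 0.0462).

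Hox genes, which mark position along the gut and of which Hoxb13 and Hoxd13 are typical of its hind end, moved with these results. Hoxb13 was 7.73, 0.0598 and 0.0898 FPKM in control replicates 1, 2 and 3, 118, 128 and 134 in HFD, and 0.227, 2.15 and 0.0516 in replicates 1, 3 and 4 of HFD with the bacterium. The 2 libraries outside HFD with the most Hoxb13, control replicate 1 and replicate 3 of HFD with the bacterium, were also those with the most Insl5. Hoxb6, of the more anterior part of the cluster, was 6.08, 45.7 and 64.2 FPKM in control, 1.14, 0.937 and 1.34 in HFD and 35.2, 23.6 and 42.7 in HFD with the bacterium, and Nts was lowest in the 4 libraries where Hoxb6 was lowest. Of 7 anterior Hoxb genes 6 fell in HFD against control and 6 rose in HFD with the bacterium against HFD, at a background of 19.7% and 12.1% of all genes called. No count is given for the posterior list, since 3 of its genes, Evx2, Hoxd12 and Hoxd13, were tested only because of their HFD values and so had to differ. The part of position along the colon in the hormone results was not tested. With no stretch given in the labels, the position of the piece cannot be told apart from the diet. Nor can it be told apart from the bacterium in the comparison of HFD with the bacterium and HFD.

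**Figure D4:**
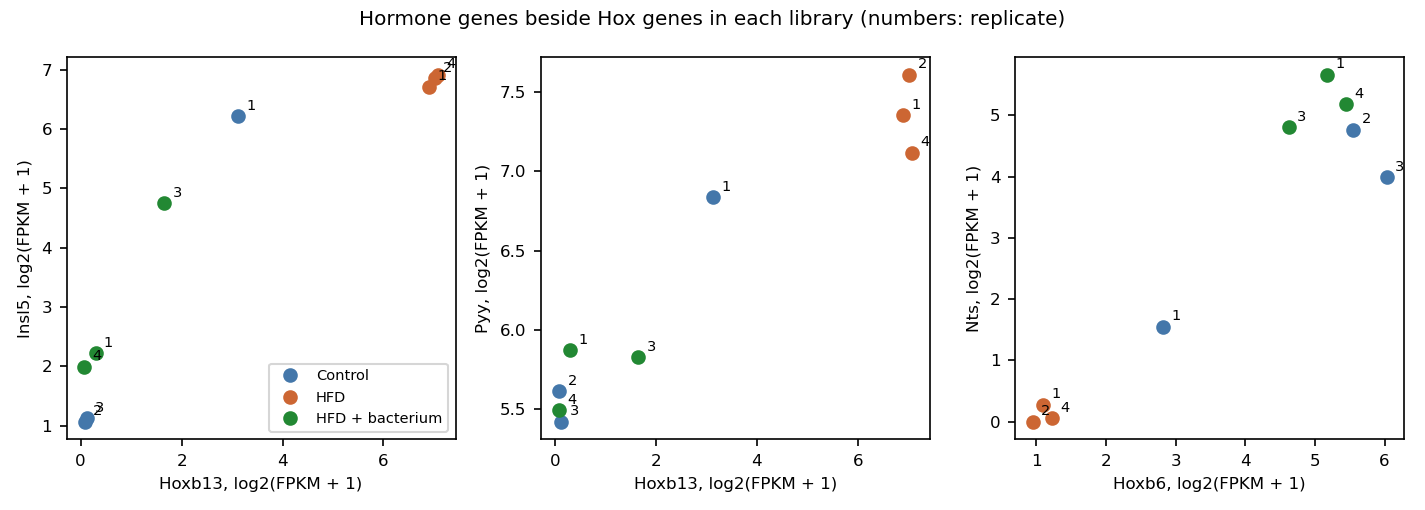
Level of a hormone gene (vertical axis, log2 of FPKM + 1) beside that of a Hox gene (horizontal axis, the same scale) in the 9 libraries, each point 1 library with its replicate number: Insl5 and Pyy beside Hoxb13, and Nts beside Hoxb6. The 3 HFD libraries lie apart in all 3 panels, and control replicate 1 lies between them and the other libraries.

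Transcription factors of endocrine cells gave 4 genes that rose and 0 that fell in HFD against control, of 13 tested of 20 in the list, Neurod1 included. Set against HFD, HFD with the bacterium gave 3 that fell and 0 that rose. This is 30.8% and 23.1% of those tested, beside 19.7% and 12.1% of all genes called. The median difference of the 13 in HFD against control was 0.39, beside -0.00 for all genes tested. Foxa2, a forkhead factor of the gut lining, was 4.74 ± 1.98 FPKM in control, 16.7 ± 2.64 in HFD and 3.35 ± 0.58 in HFD with the bacterium. It rose by 1.67 in HFD (SE 0.23, adjusted p = 0.00190) and fell by 2.02 in HFD with the bacterium against HFD (SE 0.23, adjusted p = 0.000908). Hhex, which in the mouse pancreas maintains D cells, was 0.665 ± 0.248, 1.82 ± 0.353 and 0.563 ± 0.089 FPKM and thus highest in HFD, where Sst was lowest. Which cells of these pieces express Hhex was not tested. Hhex rose by 0.76 in HFD (adjusted p = 0.0101) and fell by 0.85 in HFD with the bacterium against HFD (adjusted p = 0.00810). Isl1, a LIM homeodomain factor, rose by 0.84 (adjusted p = 0.0118) and fell by 0.73 (adjusted p = 0.0293), and Sox4 rose by 0.49 in HFD (adjusted p = 0.0308). The fall of Isl1 was called in 11 and the rise of Sox4 in 13 of 20 alternative settings. In HFD with the bacterium against control 0 of the 13 were called.

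Of 11 tested of 18 other peptide hormone genes, 8 fell and 1 rose in HFD against control, and 6 rose and 0 fell in HFD with the bacterium against HFD, with 0 called against control. These are 81.8% and 54.5% of those tested, beside 19.7% and 12.1% of all genes called, and with epithelial markers set equal 4 fell and 1 rose in HFD against control. The median differences were -1.67, 1.61 and 0.02, beside -0.00, -0.01 and -0.01 for all genes. Guca2a, which encodes guanylin, a regulator of salt and water secretion made by lining cells more than by endocrine cells, was 3921 ± 809 FPKM in control, 304 ± 48.0 in HFD and 3943 ± 642 in HFD with the bacterium. It fell by 3.68 (SE 0.25, adjusted p = 6.85e-05) and rose by 3.69 (SE 0.25, adjusted p = 8.39e-05), and Guca2b (uroguanylin) fell by 1.84 (adjusted p = 0.0103) and rose by 1.94 (adjusted p = 0.0105). Sct, the secretin gene, was 19.4, 85.5 and 85.5 FPKM in control replicates 1, 2 and 3, 2.31, 8.90 and 2.48 in HFD and 53.2, 30.1 and 50.7 in HFD with the bacterium. It fell by 3.46 (SE 0.62, adjusted p = 0.00584) and rose by 3.19 (adjusted p = 0.0107, lost without HFD replicate 1). Gal, for the neuropeptide galanin, fell by 2.45 (adjusted p = 0.00637) and rose by 2.95 (adjusted p = 0.00330), beside the enteric neuron markers given above. The means of Tac1, Penk, Cartpt and Grp were also lower in HFD (4.85, 7.66, 0.577 and 2.03 FPKM) than in control (14.2, 27.4, 3.55 and 14.0). Each of these was highest among control libraries in replicate 1 (23.5, 39.9, 5.80 and 26.3 FPKM). They were 9.84, 22.4, 3.46 and 10.1 FPKM in control replicate 2, and 9.29, 20.1, 1.40 and 5.55 in control replicate 3. With guanylin and galanin genes among those that fell, the count does not describe endocrine cells alone. The part of neurons in it was not tested. The gene that rose was Ppy, pancreatic polypeptide, of the same peptide family as Pyy, named after its values were seen. Ppy was 10.8, 3.17 and 0.396 FPKM in control replicates 1, 2 and 3, 25.4, 25.2 and 22.7 in HFD and 5.72, 4.44 and 4.44 in HFD with the bacterium, and rose by 2.63 in HFD (SE 0.61, adjusted p = 0.0181, called in 15 of 20 alternative settings). The islet genes Ins1 and Ins2 were at 0 in all 9 libraries, save 0.0915 FPKM of Ins2 in replicate 3 of HFD with the bacterium. Summed pancreatic acinar markers were 21.8 to 24.6 FPKM in control, 81.4 to 101 in HFD and 11.98 to 26.6 with the bacterium. Most of each sum was Cela1, the 1 gene of that list tested. It was called higher in HFD than in control (1.98) and lower in HFD with the bacterium than in HFD (-2.53). The other acinar markers reached at most 2.19 FPKM, for Ctrb1 in replicate 3 of HFD with the bacterium. The part of pancreatic tissue in the Ppy result was not tested.

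Of 23 genes that pack and process hormones, Chga and Chgb included, all were tested, and 6 fell and 0 rose in HFD against control. Set against HFD, HFD with the bacterium gave 5 that rose and 0 that fell. This is 26.1% and 21.7% of the list, beside 19.7% and 12.1% of all genes called. The median differences were -0.76 and 0.53, and 0.05 in HFD with the bacterium against control, where 0 were called. Pcsk1, the convertase that cuts prohormones, was 4.19 ± 0.87 FPKM in control, 2.04 ± 0.24 in HFD and 6.67 ± 0.90 in HFD with the bacterium. It fell by 0.76 (SE 0.15, adjusted p = 0.00936), a call lost with TPM scaling, with scaling without mitochondrial and immunoglobulin genes and with epithelial markers set equal, and rose by 1.33 (SE 0.15, adjusted p = 0.000836). Rph3al, a vesicle protein of regulated secretion, fell by 0.88 (adjusted p = 0.000803, lost with epithelial markers set equal) and rose by 1.013 (adjusted p = 0.000534). Syt7, a calcium sensor of exocytosis, fell by 1.17 (adjusted p = 0.00220) and rose by 1.02 (adjusted p = 0.00549), and Scg3, a granin, fell by 1.26 (adjusted p = 0.0129, lost with epithelial markers set equal and without HFD replicate 4) and rose by 1.15 (adjusted p = 0.0261, called in 13 of 20 alternative settings). Nerve cells express many of these genes, and the neuron marker sums given above moved the same way, whose part was not tested. The count for HFD against control went from 6 to 1 with epithelial markers set equal and to 9 with quantile normalization.

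Of 19 tested of 24 genes around serotonin, Tph1 included, 3 rose and 1 fell in HFD against control, 2 rose and 4 fell in HFD with the bacterium against HFD, and Tph1 alone was called against control. The share called in HFD against control, 21.1%, was near the 19.7% of all genes, and that in HFD with the bacterium against HFD was 31.6% beside 12.1%. Slc6a4, the transporter that takes serotonin back into lining cells, was 1.24 ± 0.42 FPKM in control, 7.26 ± 0.81 in HFD and 0.643 ± 0.240 in HFD with the bacterium. It rose by 1.89 (SE 0.17, adjusted p = 0.000233) and fell by 2.34 (SE 0.17, adjusted p = 0.000107). Its difference between HFD with the bacterium and control, -0.44, was not called (adjusted p = 0.203, called in 0 of 20 alternative settings). Ddc, the decarboxylase that follows Tph1 in the pathway, was 5.25 ± 1.24, 21.2 ± 1.44 and 6.26 ± 0.36 FPKM. It rose by 1.85 (SE 0.15, adjusted p = 0.000147) and fell by 1.61 (SE 0.15, adjusted p = 0.000311), unlike Tph1. The receptor gene Htr2b fell by 1.20 (adjusted p = 0.0120, lost with epithelial markers set equal) and rose by 1.48 (adjusted p = 0.00590), and Aldh2, an aldehyde dehydrogenase of serotonin breakdown among many other substrates, fell by 1.64 in HFD with the bacterium against HFD (adjusted p = 0.0138, lost without HFD replicate 1, HFD replicate 2 or replicate 1 of HFD with the bacterium). Slc18a1, which loads serotonin into vesicles of enterochromaffin cells, was at 0.541 ± 0.327, 0.609 ± 0.093 and 0.747 ± 0.074 FPKM and was not called, the largest difference being 0.20 (adjusted p = 0.547).

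Of 11 tested of 20 genes for hormone receptors and peptidases, 1 rose in HFD and the same gene fell in HFD with the bacterium against HFD, 9.09% of those tested in each, beside 19.7% and 12.1% of all genes called. This was Npy1r, a receptor of peptide YY and neuropeptide Y, at 0.806 ± 0.487 FPKM in control, 6.11 ± 0.31 in HFD and 0.879 ± 0.135 in HFD with the bacterium. It rose by 2.01 (SE 0.18, adjusted p = 0.000245) and fell by 1.92 (SE 0.18, adjusted p = 0.000366), so it was high in the libraries with the most Pyy. Of 15 tested of 21 genes for sensing nutrients and microbial products, 1 rose and 1 fell in HFD, 3 rose and 1 fell in HFD with the bacterium against HFD, and 0 were called against control. These are 13.3% and 26.7% of those tested, beside the same 19.7% and 12.1%. Ffar2, a receptor of short-chain fatty acids, was 6.60 ± 2.90, 1.24 ± 0.21 and 6.59 ± 2.60 FPKM, fell by 1.70 (SE 0.29, adjusted p = 0.00470) and rose by 1.71 (SE 0.29, adjusted p = 0.00572). Ffar1, a receptor of long-chain fatty acids, passed the filter only through its HFD values of 0.614 to 0.862 FPKM and so had to differ. It is the 1 gene counted above as higher in HFD and as lower with the bacterium. Abcc8, a subunit of a potassium channel, rose by 0.61 (adjusted p = 0.0240) and Cnr1, a cannabinoid receptor, by 1.17 (adjusted p = 0.0345) in HFD with the bacterium against HFD, called in 13 of 19 and 12 of 20 alternative settings.

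**Figure D5:**
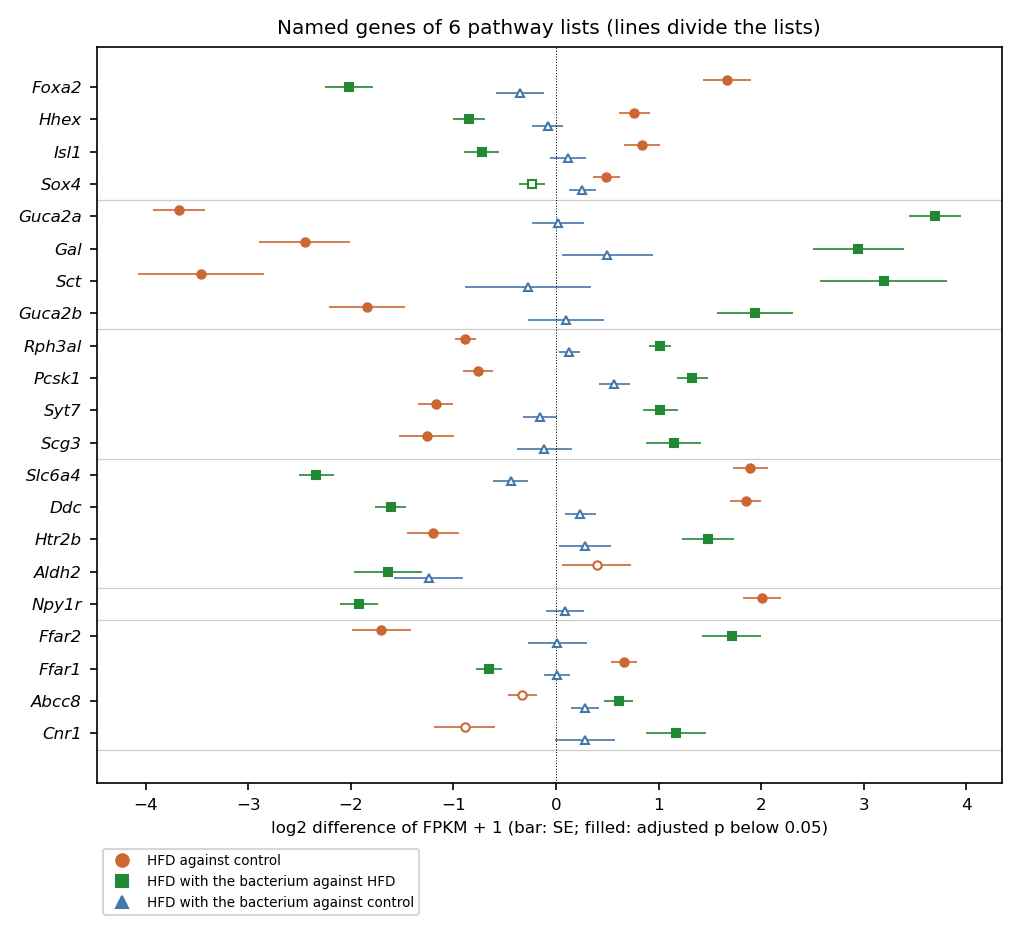
Difference on the log2(FPKM + 1) scale (horizontal axis) of the named genes of 6 lists (vertical axis, lists divided by lines: transcription factors, other hormones, granins and vesicles, serotonin, hormone receptors, nutrient receptors) in the 3 comparisons; symbols are limma estimates, bars 1 SE, and filled symbols have an adjusted p below 0.05. For each gene the first and second comparisons, which share the HFD libraries, lie on opposite sides of 0, and none of these genes has a filled triangle, the symbol of HFD with the bacterium against control.

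The genes closest in pattern to the called members were found among 12126 candidates by the root mean square difference of centred log2(FPKM + 1) over the 9 libraries. For Pyy these were Sytl1 (0.17), Gpr137b (0.20) and Tmprss2 (0.22). For Sst they were Muc3a (0.32), Hoxb5 (0.32) and Gal (0.35), and for Nts Slc10a2 (0.41), Vnn1 (0.50) and Ugt2b5 (0.50). For Tph1 they were Zfp938 (0.17), Zfp950 (0.17) and Tra2a (0.17). Slc10a2, the bile acid transporter of the ileum, had means of 28.9 FPKM in control, 0.602 in HFD and 51.8 in HFD with the bacterium, beside 14.4, 0.0865 and 37.3 for Nts.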

How the data were processed

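RNA of 9 colon libraries was analysed, grouped by the treatment label. The authors deposited 1 table of FPKM values. HISAT2 2.0.5 did the alignment, to build GRCm39, per the submitters' processing notes; the software that counted fragments and the gene models are not given in the sources used. Exonic lengths and symbols came from GENCODE M21, which is on another build, and no coordinates of the table were used. Genes reaching 0.5 FPKM in 3 or more libraries were fitted with limma 3.58.1 (R 4.3.3) on log2(FPKM + 1) with a variance trend, all 9 libraries in 1 fit. P-values were adjusted by Benjamini-Hochberg over all 17907 genes. The step was tested on simulated data. The alternatives were another pseudocount, other filters, 4 scalings, no trend, 2 groups only, the replicate number as a block, each library left out, and limma-voom on recovered fragments, which was added after seeing the data. Named genes are all 10 members, up to 4 called genes of each of 6 pathway lists with the smallest p, and the 3 genes nearest in pattern to each called member. The members and lists were chosen with earlier results of these data known. No pair of libraries shared identical values above 0, and correlations within groups were 0.928 to 0.978. Total read numbers are not given, and fragment numbers cover counting error only.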

Additional observations from a re-analysis of the deposited data

How the results depend on the processing

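Of 600 alternative values for single genes, 528 kept direction and side of the threshold, 23 lost the call, 11 gained it and 38 turned sign. Sst kept both calls in all 20 alternatives, and Nts kept the call for HFD with the bacterium against HFD in 20 and for HFD against control in 19. The replicate numbers gave no sign of pairing: same-numbered libraries of different groups had correlations of -0.16 to 0.19 in their deviations from the group mean. Differently numbered libraries had -0.17 to 0.15. With 3 libraries a group this cannot exclude a shared batch. With the replicate number as a replicate block, called genes were 1985 for HFD against control, 1288 for HFD with the bacterium against HFD and 0 for HFD with the bacterium against control. Called members were then 1 in the first (Sst) and 0 in the third, and the adjusted p became 0.0638 for Pyy and 0.0589 for Nts in the first, and 0.0645 for Pyy in the second. Among other named genes the block ended both calls of Hhex, Isl1 and Ffar1, the rise of Sox4 and Ppy in the first, and that of Ffar2 and Abcc8 in the second. Leaving out each library gave 1857 to 4521, 1161 to 3588 and 0 to 1186 called genes, and 2 to 4, 2 to 4 and 0 to 3 called members. For HFD with the bacterium against control, called genes were 15 with no filter, 302 with a filter at 1 FPKM, 11 with TPM scaling, 46 with quantile normalization, 378 scaled without mitochondrial and immunoglobulin genes, 514 with epithelial markers set equal, 2 with only the 2 groups and 57 with limma-voom. Called members were 0 with no filter, TPM scaling, quantile normalization, only the 2 groups and limma-voom. Limma-voom called 4107 genes and 5 members for HFD against control and 2372 genes when HFD with the bacterium was set against HFD. The cause of these changes was not tested.

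Signs turned only for differences that were not called. In HFD against control, Gcg (-0.02) became 0.25 with TPM scaling, 0.0091 with quantile normalization, 0.20 scaled without mitochondrial and immunoglobulin genes, 0.36 with epithelial markers equal and 0.20 with limma-voom, and Chga (-0.07) became 0.20, 0.16, 0.31 and 0.14 in these without the quantile setting. In HFD with the bacterium against HFD, Chga (0.02) became -0.18, -0.00073 and -0.092 with TPM scaling, scaling without those genes and limma-voom, and Cck (0.19) became -0.14 with limma-voom. In HFD with the bacterium against control, Chga (-0.05) became 0.020 (TPM scaling), 0.037 (quantile normalization), 0.16 (without those genes), 0.36 (epithelial markers equal), 0.049 (limma-voom) and 0.094 (replicate block), and with epithelial markers equal Pyy became 0.21 and Chgb 0.15. With 1 library left out, Gcg ran from -0.32 to 0.53, Chga from -0.26 to 0.073 and Neurod1 from -0.0025 to 0.38 in the first comparison. Chga ran from -0.12 to 0.18 and Cck from -0.038 to 0.47 in the second. In the third, Chga ran from -0.24 to 0.088, Pyy from -0.49 to 0.21, Insl5 from -0.70 to 1.89 and Sst from -0.22 to 0.31. Depth limits Nts in HFD.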
